A study of Mus musculus with 6 samples.

Results

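The genes described here are 34 genes of cholesterol synthesis, sensing, uptake, efflux and removal, taken by gene symbol from the 23282 rows of the count files. All 34 symbols were found, each in a single row, and all 34 passed the low-count filter that left 12831 genes to test. The libraries were made from hippocampus of C57BL/6 mice 16 weeks old. One group of 3 libraries carried the genotype label PHF2 t/g and the other group of 3 the label WT. PHF2 is a demethylase of methylated histone H3, and the genotype label was taken to mean a Phf2 transgene. Its promoter, the line and the cells that carry it were not given in the sources used here. Since separate animals are not stated for the libraries, p-values describe only how these libraries vary. Levels are CPM, tag counts relative to the TMM-adjusted library total, as mean ± SD of n = 3 libraries a group. The QuantSeq kit, which primes at the 3′ end, reads about 1 tag per transcript, so CPM was not divided by transcript length. Because whole tissue was used, fewer cells of a type and less RNA per cell cannot be told apart.

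Brain cholesterol is made within the brain, because plasma lipoproteins hardly cross the blood-brain barrier. Synthesis starts from acetyl-CoA, runs through mevalonate and isoprenoid units to squalene, and then closes and trims the sterol ring. The SREBP-2 transcription factor (Srebf2) is held in the endoplasmic reticulum by Scap and the Insig proteins when sterol is plentiful, and switches on the synthesis genes when sterol is scarce. Oxysterols made from surplus cholesterol activate the LXR receptors (Nr1h2, Nr1h3), which raise the efflux genes Abca1, Abcg1 and Apoe. Neurons dispose of surplus cholesterol through the 24-hydroxylase Cyp46a1, and oligodendrocytes use large amounts of it for myelin.

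In PHF2 t/g hippocampus Sc5d and Mvd, a late and an early synthesis enzyme, fell by 25.2% and 28.2% (edgeR adjusted p = 0.0172 and 0.0442). Each of these calls held in 2 of the 6 fits with 1 library left out, and neither held with library size alone. None of the 34 genes rose, and 32 did not pass the test. The synthesis enzymes lay mostly below WT, 16 of 18 with a log2 fold change under 0 (13 with library size alone as the scaling) and a median of −0.20. All 5 efflux and LXR genes lay above 0 with a median of 0.16, and 4 of 5 when replicate 1 of either group was left out. Over all 12831 tested genes 46.1% lay below 0 and the median was 0.02. The background shares were 1.49% of tested genes lower and 0.779% higher past the same test.

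The promoters of the synthesis and sensing genes among the 6 smallest p-values are shown because these 5 genes all lay lower, and that of the efflux gene Abca1 because it lay higher. Each run gives 250 bases before to 50 bases after a start in RefSeq's promoter table for GRCm38.p6, 5′ to 3′ on the gene's own strand. Capitals mark the CCAAT box, the site read by the factor NF-Y that works beside SREBP-2, on either strand (ATTGG on the other), and the sterol regulatory element core TCACNCCAC, where SREBP binds. The Hmgcs1 promoter lies at chr13:119690101-119690400 (plus strand), that of Mvd at chr8:122443373-122443672 (minus), that of Sc5d at chr9:42264251-42264550 (minus) and that of Msmo1 at chr8:64733529-64733828 (minus). The Insig1 promoter lies at chr5:28071162-28071461 (plus) and that of Abca1 at chr4:53159846-53160145 (minus). The Abca1 window uses a start inside the RefSeq gene record, which reaches to 53159988.
Hmgcs1: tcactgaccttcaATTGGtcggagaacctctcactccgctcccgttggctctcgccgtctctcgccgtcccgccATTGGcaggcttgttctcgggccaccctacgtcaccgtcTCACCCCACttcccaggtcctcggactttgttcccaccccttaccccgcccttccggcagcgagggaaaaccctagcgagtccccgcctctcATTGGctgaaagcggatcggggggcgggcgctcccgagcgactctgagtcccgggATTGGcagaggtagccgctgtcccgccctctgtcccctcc
Mvd: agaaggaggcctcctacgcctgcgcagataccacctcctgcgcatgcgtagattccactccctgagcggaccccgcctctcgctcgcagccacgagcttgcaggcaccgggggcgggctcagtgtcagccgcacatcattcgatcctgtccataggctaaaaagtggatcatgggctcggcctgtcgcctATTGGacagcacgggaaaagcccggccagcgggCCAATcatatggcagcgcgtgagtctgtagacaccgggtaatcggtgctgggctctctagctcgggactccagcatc
Sc5d: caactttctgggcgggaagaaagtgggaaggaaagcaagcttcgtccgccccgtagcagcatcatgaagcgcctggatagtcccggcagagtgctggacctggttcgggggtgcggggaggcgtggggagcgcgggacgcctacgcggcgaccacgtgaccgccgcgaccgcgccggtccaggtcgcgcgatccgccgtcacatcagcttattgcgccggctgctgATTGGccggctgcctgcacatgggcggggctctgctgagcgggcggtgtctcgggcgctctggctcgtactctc
Msmo1: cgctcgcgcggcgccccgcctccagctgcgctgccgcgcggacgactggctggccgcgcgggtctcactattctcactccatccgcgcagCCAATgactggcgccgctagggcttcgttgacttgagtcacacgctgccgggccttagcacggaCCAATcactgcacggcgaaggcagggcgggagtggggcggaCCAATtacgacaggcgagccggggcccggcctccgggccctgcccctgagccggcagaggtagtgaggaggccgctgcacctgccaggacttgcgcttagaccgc
Insig1: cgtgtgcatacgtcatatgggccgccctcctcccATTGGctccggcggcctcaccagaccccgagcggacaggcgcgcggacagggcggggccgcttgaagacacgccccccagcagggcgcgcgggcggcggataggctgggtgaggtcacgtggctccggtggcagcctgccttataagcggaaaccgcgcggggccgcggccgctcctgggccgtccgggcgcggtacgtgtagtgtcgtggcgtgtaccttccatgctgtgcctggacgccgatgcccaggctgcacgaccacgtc
Abca1: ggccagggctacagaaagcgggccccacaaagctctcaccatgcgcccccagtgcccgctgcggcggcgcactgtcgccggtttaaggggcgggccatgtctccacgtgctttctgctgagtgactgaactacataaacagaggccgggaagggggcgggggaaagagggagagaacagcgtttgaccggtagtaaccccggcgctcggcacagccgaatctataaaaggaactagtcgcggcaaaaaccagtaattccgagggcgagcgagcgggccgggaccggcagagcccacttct

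The promoter table held 28 of the 34 genes, and the promoter listed first for each was searched on both strands. The CCAAT box stood in 13 of 15 synthesis promoters and in 7 of 13 promoters of the other genes, against 37.9% of 27025 promoters of the same length in the table. It was held by all 10 listed promoters of genes whose PHF2 t/g libraries all lay below WT, and by 10 of the other 18. The GC box GGGCGG stood in 14 of 15 synthesis promoters, 8 of 13 of the other genes and 35.9% of all promoters. It stood in 9 of the 10 promoters of lower genes with separate groups and in 13 of the other 18. The split into lower and other genes came from the levels described here, and most of the lower genes are synthesis genes. A link between either box and a lower level was therefore not tested. The sterol element core was found in Hmgcs1 alone among the 28, 137 bases before the start, and in 1.22% of all promoters. In the Hmgcs1 promoter 4 CCAAT boxes lie around that core, 237, 176 and 45 bases before and 10 bases after the start. The Mvd promoter has 2 CCAAT boxes, 60 and 27 bases before the start, Msmo1 has 3 (160, 96 and 55 bases before), Sc5d has 1 (24 before) and Insig1 has 1 (216 before). The Abca1 window holds none. A match is a description of letters, and the strict core misses variant elements. The shares of all promoters use the first promoter of every symbol in the table, whether or not the gene was tested here. They are therefore no background of genes with like expression.

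The libraries held 5512171 to 8844718 counts, of which 15091 to 24662 belonged to the 34 genes. Phf2 read 35.5, 37.4 and 43.1 CPM in PHF2 t/g and 38.3, 35.6 and 39.3 CPM in WT, so the groups overlapped (log2 fold change 0.033, SE 0.114, edgeR adjusted p = 0.929). By exact permutation of the 6 libraries the two-sided p was 0.9, and 0.1 is the smallest that this design allows. Since tags miss a transgene that lacks the native 3′ end, the level checks no label. WT replicate 2 stood apart on the leading axis of a multidimensional scaling plot (1.08, the others −0.533 to 0.152). Among dentate and pyramidal markers, Neurod6 read 76.4 to 155 CPM, Mpped1 377 to 493 CPM and Fibcd1 7.88 to 40.9 CPM. The dentate granule cell markers Prox1 (1.77 to 8.76), C1ql2 (1.29 to 9.8) and Dsp (0 to 4.76 CPM) were low in all 6 libraries. The dopamine receptor gene Drd1, abundant in striatum, read 97.8 to 160 CPM.

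**Figure D1:**
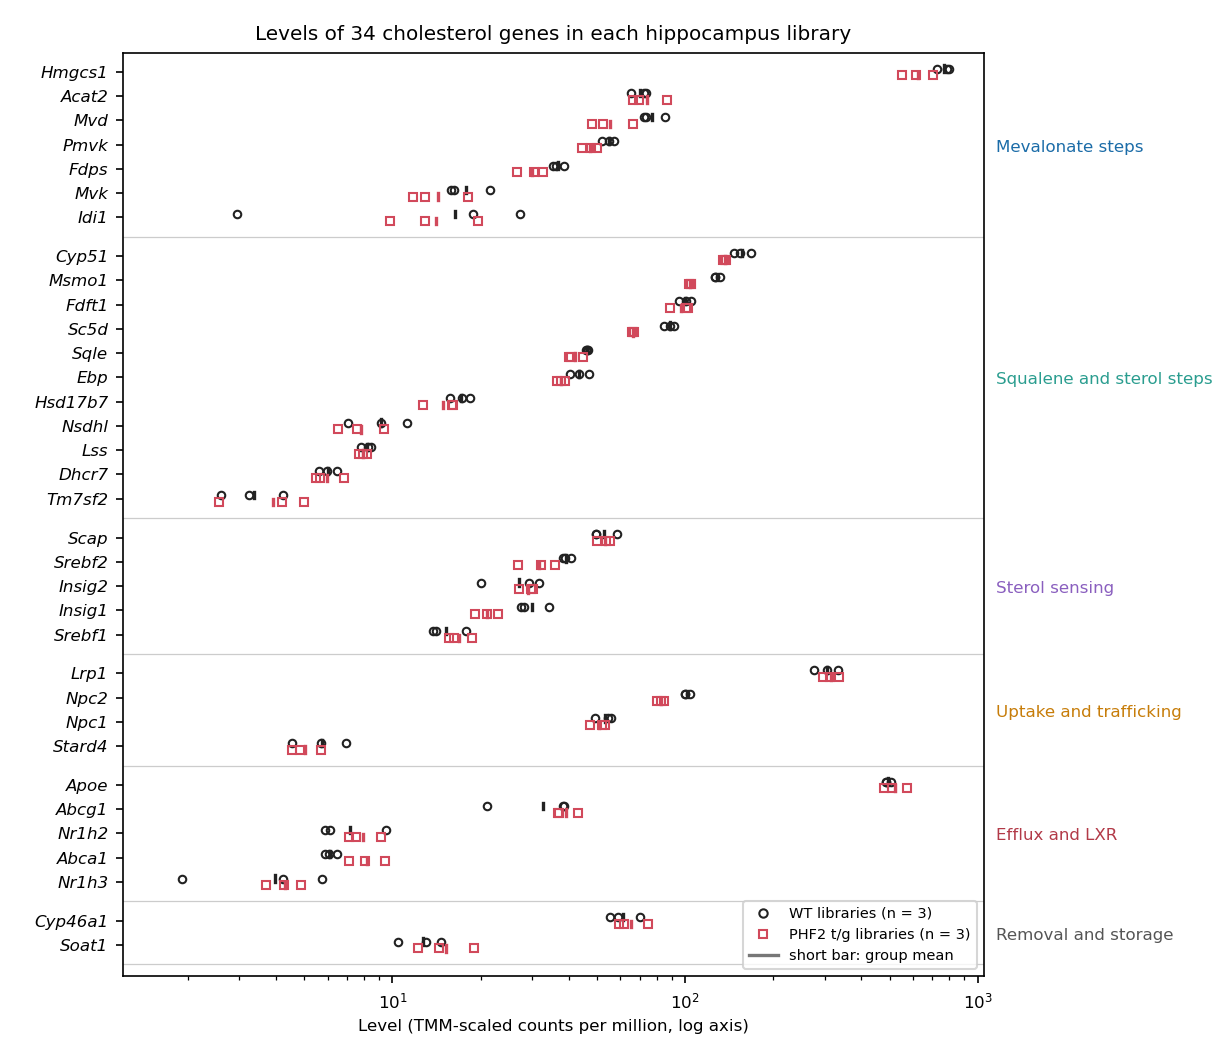
Level of each of the 34 genes in each library, grouped by role; the horizontal axis is TMM-scaled CPM on a log scale, circles are the 3 WT and squares the 3 PHF2 t/g libraries, and short bars are group means. Levels span Tm7sf2 (mean 3.63 CPM) to Hmgcs1 (mean 695 CPM), and Idi1 has 1 WT library far to the left of the other libraries.

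Across all 6 libraries the most abundant of the 34 transcripts were Hmgcs1 (mean 695 CPM), Apoe (507 CPM) and the receptor gene Lrp1 (309 CPM). They stood at the 98.8th, 98.2nd and 96.3rd percentile of tested genes. The least abundant were Tm7sf2 (3.63 CPM), Nr1h3 (4.12 CPM) and Stard4 (5.37 CPM). Of 33 neighbouring pairs in the order of levels 30 overlapped in their library ranges, and 3 pairs stood apart, namely Apoe over Lrp1, Lrp1 over Cyp51 and Cyp51 over Msmo1. Hmgcs1 and Apoe overlapped in their ranges, since Hmgcs1 read as low as 550 CPM and Apoe as high as 571 CPM. Within the synthesis pathway the levels did not follow the order of the steps: Hmgcs1 was followed by Cyp51 (147 CPM) and Msmo1 (116 CPM), while the intervening Lss read 8.05 CPM. The 7 mevalonate genes summed to 1016 to 1055 CPM in WT and 808 to 927 CPM in PHF2 t/g, and the 11 later genes to 589 to 624 and 517 to 532 CPM.

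The mevalonate genes turn acetyl-CoA into farnesyl diphosphate. Of these 7, 1 fell, 0 rose and 6 did not pass (median log2 fold change −0.29, 6 below 0). Mvd, mevalonate diphosphate decarboxylase (chromosome 8, 122433596 to 122443422), read 47.96, 52.3 and 66.3 CPM in PHF2 t/g against 85.7, 73.7 and 72.3 CPM in WT. All PHF2 t/g libraries lay below all WT libraries, and replicate 3 came nearest to WT. The log2 fold change was −0.48 (SE 0.119, 95% interval −0.73 to −0.23; edgeR adjusted p = 0.0442). Leaving out PHF2 t/g replicate 1 (adjusted p = 0.318) or 2 (0.216), or WT replicate 1 (0.106) or 3 (0.0604), ended the call, at log2 fold changes of −0.38, −0.44, −0.41 and −0.53. It also ended with library size alone (−0.38, adjusted p = 0.1002), with limma-voom as the tool (0.077), in a fit that was not robust (0.0875) and with the replicate block (0.0512), as it did with PHF2 t/g replicate 1 and WT replicate 2 both left out (−0.41, 0.127).

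Hmgcs1, the cytosolic synthase that condenses acetoacetyl-CoA with acetyl-CoA, read 702, 616 and 550 CPM in PHF2 t/g and 723, 794 and 784 CPM in WT. Again every PHF2 t/g library lay below every WT library, replicate 1 by a narrow margin. At −0.30 (SE 0.088) on the log2 scale it did not pass (edgeR adjusted p = 0.0855), but it did by DESeq2 (0.0424), without the low-count filter (0.0125) and with PHF2 t/g replicate 1 and WT replicate 2 both left out (0.0302). Fdps, which makes farnesyl diphosphate, averaged 30.0 ± 3.05 against 36.7 ± 1.7 CPM, and Pmvk, phosphomevalonate kinase, 47.4 ± 2.93 against 54.7 ± 2.65 CPM, both with groups apart and neither past the test (adjusted p = 0.242 and 0.351). The end of the Fdps transcript is also held by other gene models (49.7% of its last 50-base words in Gm3571), so its tags are uncertain. Mvk, mevalonate kinase, averaged 14.3 ± 3.38 against 17.8 ± 3.16 CPM, and Acat2, which supplies acetoacetyl-CoA, 74.1 ± 10.9 against 70.4 ± 4.48 CPM, with overlapping groups.

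Idi1, the isomerase of isopentenyl diphosphate, was the most variable of the 34 genes. Its levels were 12.9, 9.8 and 19.6 CPM in PHF2 t/g and 27.2, 2.94 and 18.9 CPM in WT. WT replicate 2 held 25 counts of it and the other libraries 69 to 143, so that the highest WT level was 9.27 times the lowest. The SE of its log2 fold change was 0.842, against 0.08 to 0.223 for the other genes at 10 CPM or more, and its interval of −2.45 to 2.14 leaves the direction unresolved.

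The later genes carry farnesyl diphosphate through squalene and lanosterol to cholesterol. Of these 11, 1 fell, 0 rose and 10 did not pass (median log2 fold change −0.19, 10 below 0). Sc5d, the lathosterol desaturase (chromosome 9, 42251592 to 42264300), read 66.4, 65.6 and 66.8 CPM in PHF2 t/g against 84.9, 91.9 and 88.8 CPM in WT. The PHF2 t/g libraries were nearly level and far below the lowest WT library. The log2 fold change was −0.42 (SE 0.089, 95% interval −0.61 to −0.23; edgeR adjusted p = 0.0172). Leaving out PHF2 t/g replicate 1 (adjusted p = 0.128), 2 (0.1095) or 3 (0.067), or WT replicate 3 (0.05004), ended the call while the size stayed at −0.41 to −0.43. It ended with library size alone too (−0.32, adjusted p = 0.0745), and with PHF2 t/g replicate 1 and WT replicate 2 both left out (−0.39, 0.0669).

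Msmo1, the sterol C4-methyl oxidase, read 104.7, 104.7 and 103.1 CPM in PHF2 t/g and 126, 132 and 127 CPM in WT. These groups stood well apart, yet the gene did not pass (log2 fold change −0.30, SE 0.08, edgeR adjusted p = 0.0561; DESeq2 0.0428, and 0.0432 without the low-count filter). Cyp51, the lanosterol demethylase and the most abundant later gene, read 138.1, 136.6 and 134.8 CPM against 146.8, 168.1 and 154.5 CPM. It too was lower in each PHF2 t/g library without passing (−0.20, adjusted p = 0.246), and 25.9% of the words at its 3′ end lie on the opposite strand of Akap9. Sqle, squalene epoxidase, averaged 42.0 ± 2.53 against 46.1 ± 0.376 CPM, and Ebp, the sterol isomerase, 37.7 ± 1.31 against 43.5 ± 3.22 CPM, both with groups apart (adjusted p = 0.588 and 0.393).

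The other 6 later genes overlapped between groups. Fdft1, squalene synthase, had a log2 fold change of −0.04, but its whole 3′ end is also covered by Ctsb on the opposite strand. Partial overlaps of this kind also touch Npc1, Lss and Srebf1, and no source used here states whether counting kept strand. Hsd17b7 and Nsdhl, which remove the C4 methyl groups with Msmo1, had log2 fold changes of −0.19 and −0.23, Lss, which closes the ring, −0.05, and Dhcr7, the last reductase, −0.01. Tm7sf2, a sterol C14-reductase and the rarest of the 34 transcripts, read 5.0, 2.56 and 4.18 CPM in PHF2 t/g and 3.24, 2.58 and 4.24 CPM in WT. It lay at 0.25 with an SE of 0.314, and shares exon sequence with Vps51.

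**Figure D2:**
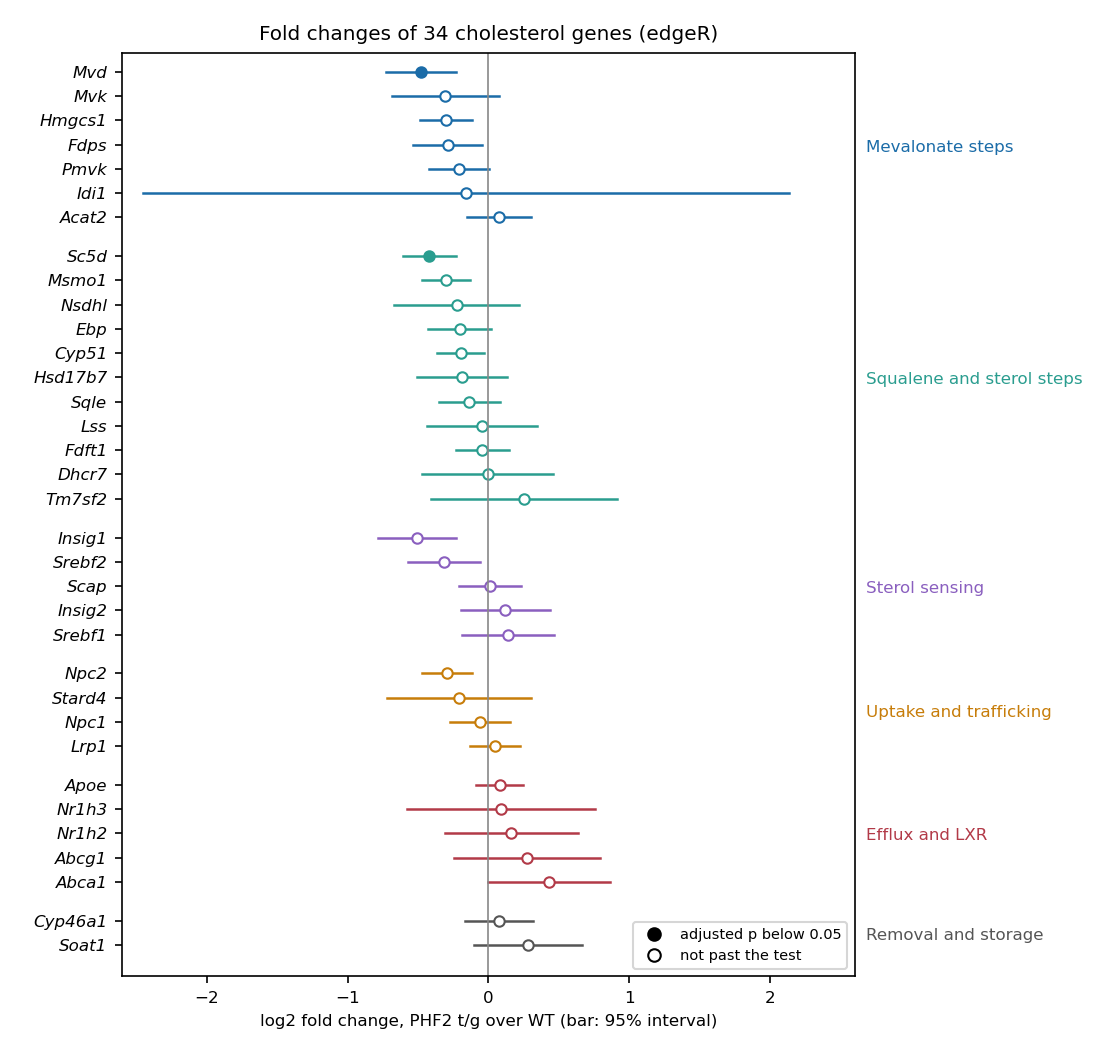
Log2 fold change of each gene (PHF2 t/g over WT, edgeR), with bars for the 95% interval and genes grouped by role; filled points passed the test over all genes. Mvd (−0.48) and Sc5d (−0.42) are the filled points, 9 of the 34 intervals lie wholly below 0 and none wholly above.

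Among the 5 sensing genes 0 passed in either direction (2 below 0, median log2 fold change 0.011). Insig1, which retains the SREBP escort in the endoplasmic reticulum and is itself a strong SREBP-2 target, read 19.2, 21.0 and 22.9 CPM in PHF2 t/g against 34.3, 27.4 and 28.1 CPM in WT. The groups were apart, and its log2 fold change of −0.51 (SE 0.132) was the lowest of the 34, but the edgeR adjusted p was 0.0509. It passed without WT replicate 2 (adjusted p = 0.0158), with DESeq2's size factors in edgeR (0.0445) and without the low-count filter (0.0123). Srebf2 itself averaged 31.6 ± 4.61 against 39.3 ± 1.28 CPM, lower in each PHF2 t/g library and not past the test (−0.32, adjusted p = 0.212).

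Its partner genes had log2 fold changes of 0.011 (Scap), 0.121 (Insig2) and 0.14 (Srebf1), and none passed. Scap, the escort protein and the most abundant sensing gene, read 53.9, 49.99 and 55.4 CPM in PHF2 t/g and 49.7, 49.6 and 58.7 CPM in WT. Insig2 averaged 28.97 ± 1.7 against 26.96 ± 6.07 CPM, where WT replicate 2 held the lowest value (20.1 CPM). Srebf1, whose SREBP-1 product favours fatty acid genes, was the rarest at 15.7, 16.2 and 18.7 CPM in PHF2 t/g and 14.1, 13.8 and 17.9 CPM in WT. The groups of all 3 genes overlapped.

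Of the 4 uptake and trafficking genes 0 passed (3 below 0, median log2 fold change −0.13). Npc2, the lysosomal carrier that hands cholesterol to Npc1, read 82.7, 80.1 and 85.0 CPM in PHF2 t/g and 100.1, 103.8 and 99.7 CPM in WT. Its groups stood apart (−0.29, SE 0.085, edgeR adjusted p = 0.0829). Npc1, its membrane partner, averaged 50.9 ± 3.13 against 53.2 ± 3.37 CPM with overlapping groups. The pair thus gave unlike values, although the difference between their fold changes was not tested. Lrp1, an endocytic receptor for Apoe particles, read 295, 335 and 313 CPM against 305, 275 and 332 CPM, and Stard4, a soluble sterol carrier, 4.55, 5.68 and 4.83 CPM against 5.71, 6.93 and 4.54 CPM. Both overlapped, Stard4 on 30 to 59 counts a library.

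None of the 5 efflux and LXR genes passed in either direction. Abca1, which loads cholesterol onto apolipoproteins, read 9.44, 7.1 and 8.05 CPM in PHF2 t/g and 6.47, 5.88 and 6.05 CPM in WT. It was the only one of the 34 with every PHF2 t/g library above every WT library (log2 fold change 0.43, SE 0.207, 95% interval −0.002 to 0.865; edgeR adjusted p = 0.343). Abcg1 averaged 39.0 ± 3.53 against 32.6 ± 10.02 CPM. Its WT mean was set by replicate 2 at 21.0 CPM, and without that library its log2 fold change moved from 0.27 to 0.02.

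Apoe, the main lipid carrier secreted by astrocytes, read 571, 479 and 511 CPM in PHF2 t/g and 504, 486 and 487 CPM in WT, with overlapping groups (0.08, adjusted p = 0.701). The LXR gene Nr1h2 averaged 7.93 ± 1.09 against 7.18 ± 2.03 CPM. Nr1h3 read 4.88, 4.26 and 3.7 CPM against 1.9, 4.23 and 5.75 CPM, on 10 to 44 counts a library. The 95% intervals of their log2 fold changes ran from −0.31 to 0.63 and from −0.58 to 0.76.

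The 2 removal and storage genes did not pass and both lay above 0, Cyp46a1 turning below 0 without PHF2 t/g replicate 3 (−0.03) or WT replicate 1 (−0.002). Cyp46a1, the neuronal 24-hydroxylase, read 59.3, 61.6 and 74.8 CPM in PHF2 t/g and 55.2, 70.0 and 59.2 CPM in WT, and Soat1, which esterifies cholesterol for storage, 14.4, 19.0 and 12.2 CPM against 14.7, 10.5 and 13.01 CPM. Both overlapped.

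The count of genes with separate groups is one way to read these small changes together. In 12 of the 34 genes all PHF2 t/g libraries lay below all WT libraries, against 10.4% of all tested genes, and in 1 they lay above, against 10.1%. The 12 are Mvd, Hmgcs1, Pmvk, Fdps, Sqle, Cyp51, Msmo1, Ebp and Sc5d among the synthesis genes, with Insig1, Srebf2 and Npc2. They were lower by 9.03% (Sqle) to 29.6% (Insig1). With library size alone 7 lay below and 3 above. At an unadjusted edgeR p under 0.05 there were 9 genes lower, against 7.95% of tested genes, and 0 higher, against 6.72%. DESeq2 and limma-voom were counted at an adjusted p under 0.05 only, where they called 0 higher. All 12 averaged over 10 CPM, as did 26 of the 34, and the 8 genes below 10 CPM had SEs of 0.187 to 0.317. The shares of tested genes given here run over genes of every level, and no share at a like level was taken. The 34 genes were also chosen with earlier results of these data known.

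**Figure D3:**
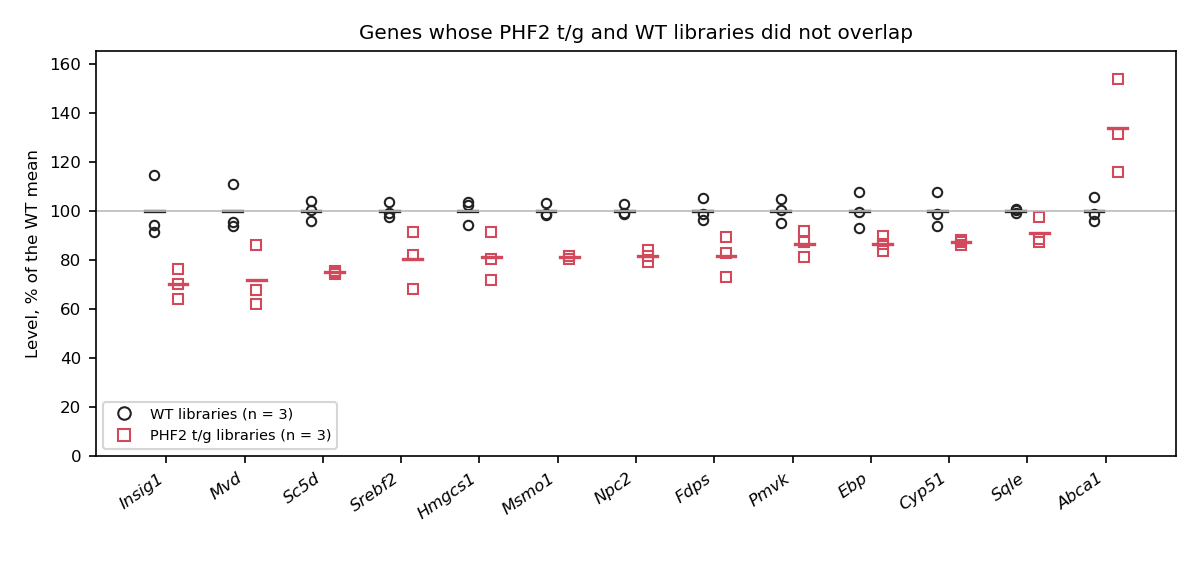
Level in each library as a percentage of the WT mean for the 13 genes whose groups did not overlap; circles are WT and squares PHF2 t/g libraries, and bars are group means. The 12 genes to the left lie 9.03% to 29.6% lower by the fitted fold change, and Abca1 at the right lies above WT in all 3 PHF2 t/g libraries.

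Another 114 genes of sterol and lipid metabolism, listed by role, were read from the same fit to place these values, and 100 of them were tested. Apod alone passed, and 99 did not. Apod, a lipid-binding apolipoprotein made by glia and meningeal cells, rose from 157, 182 and 167 CPM in WT to 239, 243 and 253 CPM in PHF2 t/g. Its lowest PHF2 t/g library lay above the highest WT library (1.45-fold, log2 fold change 0.54, SE 0.081; edgeR adjusted p = 0.00115), and the call held with each of the 6 libraries left out. Of the 12 tested transporters and apolipoproteins 7 lay above 0 (median 0.20), and in 6 the PHF2 t/g libraries all lay above WT, against 10.1% of all tested genes.

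Enzymes and targets of fatty acid synthesis are the genes that SREBP-1 favours. Of 15 tested, 12 lay above 0 (median 0.14) and 0 passed, with 10 to 13 above 0 under the other settings. Acaca, the acetyl-CoA carboxylase, had the smallest p among them, at 18.9 ± 3.24 in PHF2 t/g against 13.03 ± 2.26 CPM (edgeR adjusted p = 0.117). In 6 of the 15 the PHF2 t/g libraries all lay above WT, against 10.1% of all tested genes. In 1, Mid1ip1, they all lay below (log2 fold change −0.24, edgeR adjusted p = 0.216), against 10.4%. The lowest of the 15 was the desaturase gene Fads2 (log2 fold change −0.82, adjusted p = 0.249). In the isoprenoid branch that leaves the pathway after Fdps, 9 of 13 lay above 0 and 0 passed, Rce1, a CAAX protease, having the smallest p (10.3 ± 0.371 against 7.96 ± 1.01 CPM; adjusted p = 0.372).

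None of the remaining related genes passed. Of 8 further genes of sterol synthesis and its electron donors 5 lay below 0 (median −0.07), led by Cnbp, a nucleic acid binding protein, at 279.9 ± 11.7 against 329 ± 11.5 CPM (edgeR adjusted p = 0.122). For 12 genes of SREBP processing and sterol-regulated turnover the median was −0.014, and Erlin2 of the endoplasmic reticulum had the smallest p (22.7 ± 3.2 against 17.4 ± 1.32 CPM, adjusted p = 0.185). The 15 lipoprotein receptor genes had a median of 0.10 (Lrp11 0.24, adjusted p = 0.372) and the 20 sterol carriers one of 0.076 (Osbpl8, an oxysterol-binding protein relative, 0.43, adjusted p = 0.0668). Of the esterification and oxysterol genes 5 were tested (median 0.024; Cyp7b1 −0.24, adjusted p = 0.587), and 7 fell below the low-count filter.

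**Figure D4:**
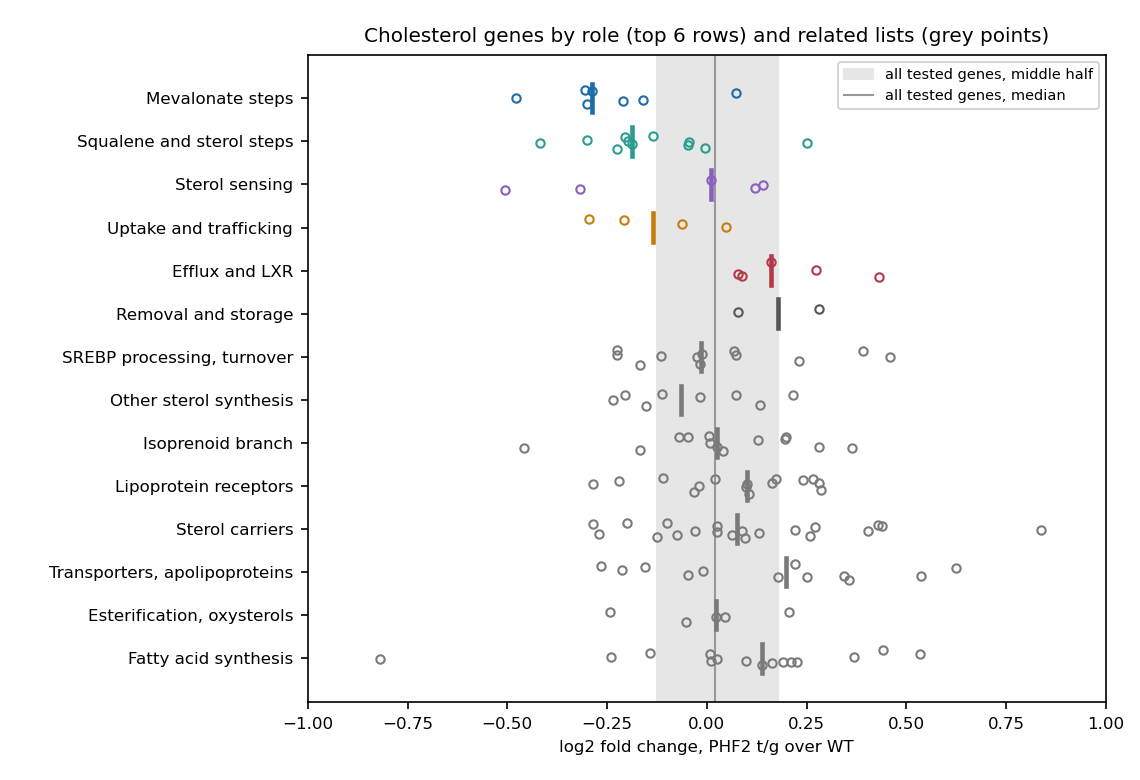
Log2 fold changes (PHF2 t/g over WT) of the 34 genes by role, top 6 rows, and of the related lists, grey points; thick bars are list medians, and the band and thin line show the middle of the distribution of all tested genes (quartiles −0.125 and 0.179, median 0.02). The mevalonate (−0.29) and later synthesis (−0.19) medians lie left of the band, as does that of uptake and trafficking (−0.13), while the transporter and apolipoprotein median (0.20) lies right of it and the fatty acid median (0.14) inside it.

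Markers of other cells and tissues moved in the same comparison, and their part in these results was not tested. Of 14 oligodendrocyte markers Mag and Opalin fell and 0 rose, while the summed level was 2355 to 2623 CPM in WT and 2538 to 2587 CPM in PHF2 t/g. Opalin went from 12.5 ± 2.25 to 4.62 ± 1.41 CPM and Mag from 173 ± 20.6 to 134 ± 8.1 CPM. Of 12 astrocyte markers 0 passed (summed level 4319 to 4514 CPM in WT and 4288 to 4556 CPM in PHF2 t/g), and 0 of 8 precursor markers (228 to 257 and 205 to 221 CPM). For 9 neuron markers 0 passed, with sums of 10150 to 10470 CPM in WT and 9393 to 9669 CPM in PHF2 t/g. Of these 9, 7 lay below 0 and 2 above (median log2 fold change −0.107). Camk2a made up most of the lower sum, at 3214 ± 203 CPM in WT and 2669 ± 201 CPM in PHF2 t/g. Syt1 was level at 1801 ± 167 and 1800 ± 101 CPM. For 10 microglia markers 0 passed, with sums of 344 to 416 and 341 to 359 CPM.

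Genes of several other lists rose in PHF2 t/g, and the summed levels given for these lists run over all listed genes, tested or not. Penk and Rgs9 rose among 6 tested striatum markers (sum over 7 listed 568 to 660 CPM in WT and 733 to 846 CPM in PHF2 t/g). Adora2a of that list lay the other way without passing (log2 fold change −0.33, adjusted p = 0.169), and Drd2 was at or near 0 (0 to 0.454 CPM). Avp, Oxt and Trh rose among 4 tested hypothalamus markers (sum over 8 listed 4.84 to 5.76 and 52.8 to 55.5 CPM), with Agrp at 0 to 0.322 CPM and Hcrt at 0 to 0.952 CPM. Mgp rose among 7 tested leptomeningeal markers (sum over 8 listed 236 to 328 and 385 to 461 CPM). Of those 7 only Dcn lay below 0, with overlapping groups and without passing (log2 fold change −0.34, edgeR adjusted p = 0.387). Flt1 and Ly6c1 rose among 10 endothelial and mural markers (122 to 148 and 156 to 164 CPM). The endothelial gene Cldn5 lay lower with separate groups and did not pass (−0.59, edgeR adjusted p = 0.0791). The 2 tested choroid plexus markers did not pass (sum over 6 listed 5.9 to 9.17 and 11.5 to 318 CPM), the highest value being PHF2 t/g replicate 1, with Folr1 at 0 in 2 WT libraries. Among 8 dentate and pyramidal markers Wfs1 rose and 7 did not pass (707 to 785 and 645 to 734 CPM). The ribosomal RNA row Rn45s held 8.2% to 9.89% of counts in WT and 7.05% to 7.61% in PHF2 t/g.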

How the data were processed

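Transcript 3′ ends were sequenced from 6 hippocampus libraries, made with QuantSeq after Trizol extraction, per the labels' protocols. Each deposited file lists unnormalized counts by gene symbol. Bowtie2, edgeR and the build mm10 were named for the authors' processing, per the submitters' processing notes, while versions, counting program, annotation, strand setting and filters were not given in the sources used here. Group and replicate came from each sample's title. Of 23282 rows, 44 repeat a symbol and stayed separate. Genes were kept by filterByExpr, scaled by TMM and tested across all genes with edgeR 4.0.16 in R 4.3.3 (robust glmQLFit, glmQLFTest, genotype alone), adjusting p over 12831 genes by Benjamini-Hochberg at 0.05. The procedure was tested on simulated data.

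Alternatives were DESeq2 1.42.0, its size factors, library size alone, limma-voom (limma 3.58.1), 2 other filters, quasi-likelihood without the robust option, a replicate block, leaving out each library, WT replicate 2 and PHF2 t/g replicate 1 both left out, 3 abundant rows left out and a threshold of 0.1. The 34 genes and all lists were chosen with earlier results of these data known. Per-library values are given for genes past the test, the 6 smallest p-values and the highest and lowest level in each role; related lists name genes past the test, otherwise the smallest p. The 5 synthesis and sensing promoters, Abca1's promoter, Drd1, Adora2a, Cldn5, Dcn, Camk2a, Syt1, Fads2, Mid1ip1, Fibcd1 and the low-count markers were picked after values were seen. Copies were sought as shared 50-base words in the last 500 bases of GENCODE M21 transcripts. Promoters and positions are RefSeq's (GRCm38.p6), matched by symbol.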

Additional observations from a re-analysis of the deposited data

How the results depend on the processing

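The number of the 34 genes past the test in the lower direction was 2, and none was higher under any setting. It was 0 with library size alone, 4 by DESeq2, 1 by limma-voom, 5 without the low-count filter, 1 without the robust fit, 1 with PHF2 t/g replicate 1 and WT replicate 2 both left out (Hmgcs1, in place of Sc5d and Mvd), and 6 at an adjusted p under 0.1; it was 0 to 3 with 1 library left out. For all genes the count of 291 became 162 by limma-voom, 606 without the filter, 149 without the robust fit, 140 with both left out and 547 at 0.1, and 49 to 392 with 1 library left out. With library size alone, which shifted the median of all genes from 0.02 to 0.121, calls were 207 higher and 70 lower, against 100 and 191, and by DESeq2 51 and 217. Under library size alone the median was −0.10 for the synthesis genes (−0.20 with TMM), 0.18 for the other 16 genes (0.079) and 0.002 for all 34 (−0.099), 13 of 18 synthesis genes lay below 0, and separate groups numbered 7 lower and 3 higher, while the synthesis median relative to all genes was −0.221 (−0.222 with TMM). With PHF2 t/g replicate 1 and WT replicate 2 both left out the synthesis median was −0.257 and 2 genes were higher with separate groups. With 1 library left out, the synthesis median was −0.219 to −0.174, that of the other genes 0 to 0.094, that of all 34 −0.117 to −0.056, and separate groups 12 to 14 lower and 1 to 2 higher. The median of all 34 was −0.056 by limma-voom and −0.053 with the replicate block. Related genes past the test numbered 2 higher with library size alone, 3 higher and 1 lower without the filter, 1 lower by DESeq2, 2 higher and 1 lower at 0.1, and 1 to 2 higher and 0 to 1 lower with 1 library left out. The causes of these shifts were not tested.

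The labels do not say whether equal replicate numbers mark a shared litter or day, so the main fit used no replicate block. Same-numbered libraries had correlations of −0.004, 0.123 and 0.085 between their deviations from the group means, and the other pairs −0.126 to 0.067. With 3 libraries a group these values can neither show nor exclude a pairing. With the replicate block 1 of the 34 genes passed (Sc5d; Mvd adjusted p = 0.0512) and 299 genes in all.

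Signs turned only in genes that were not past the test. With library size alone the log2 fold change was 0.096 for Dhcr7, 0.057 for Fdft1, 0.055 for Lss and 0.04 for Npc1. By limma-voom it was 0.434 for Idi1. With 1 library, or PHF2 t/g replicate 1 and WT replicate 2 together, left out the values ran from −0.053 to 0.144 for Acat2, −0.003 to 0.134 for Apoe, −0.031 to 0.25 for Cyp46a1, −0.108 to 0.047 for Dhcr7, −0.089 to 0.014 for Fdft1, −0.713 to 0.41 for Idi1, −0.096 to 0.236 for Insig2, −0.021 to 0.11 for Lrp1, −0.202 to 0.404 for Nr1h3, −0.051 to 0.092 for Phf2, −0.048 to 0.088 for Scap, −0.362 to 0.053 for Stard4 and −0.177 to 0.474 for Tm7sf2.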
